A study of Sus scrofa with 6 samples.

Results

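The genes described here are 10 regulators of chromosome segregation: the kinetochore protein BOD1, the spindle checkpoint genes BUB1, BUB1B and MAD2L1, the Aurora kinases AURKA, AURKB and AURKC, the Polo-like kinases PLK1 and PLK4, and CDC20. They were picked by gene symbol, and all 10 were found among the 29874 genes of a transcript table, in which they had 37 of 81774 transcript rows. Each row carries FPKM, the fragments mapped to a transcript scaled for its length and for the depth of the library, and the FPKM of a gene is the sum over its rows. The libraries, in 2 groups of 3, were made from mRNA of 8-cell embryos of the pig (Sus scrofa). The first group carries the genotype label LncT KD and was given siRNA by injection into the cytoplasm, to lower a long non-coding RNA called LncT. The second group is labelled as control for both genotype and treatment, and the sources used here do not say whether control embryos received an inactive siRNA, how many embryos a library holds, or their breed. The comparison asks what lowering LncT does to transcripts of the embryo. The set was put together with the knockdown and control values already known, and BOD1 was among the genes with the smallest p for lower levels. Differences between the groups are therefore given for the 10 genes as a description.

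Before chromosomes separate, every kinetochore must attach to microtubules of the spindle. An unattached kinetochore recruits the kinase BUB1 and converts MAD2 (the product of MAD2L1) into a form that joins BUBR1 (the product of BUB1B), BUB3 and CDC20. This mitotic checkpoint complex holds back the anaphase-promoting complex, the ubiquitin ligase that CDC20 would otherwise activate to destroy securin and cyclin B. Aurora B, and in germ cells its relative Aurora C, releases faulty attachments as part of the chromosomal passenger complex. Aurora A and PLK1 act on centrosomes, spindle assembly and mitotic entry, and PLK4 starts the duplication of centrioles. BOD1 restrains the phosphatase PP2A-B56 at kinetochores in human cells. Early embryos divide at first with mRNA and protein stored in the egg, which includes much of this machinery.

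The libraries were of similar depth apart from knockdown 2. Coverage per FPKM, a relative depth, was 6.29 to 9.41 in knockdowns and 6.45 to 7.03 in controls, and 9940 to 10577 genes reached 1 FPKM in knockdowns, against 9237 to 10335 in controls. Control 3 stood apart from the other controls: over the 10417 tested genes its Spearman correlation was 0.900 to 0.941 with the 3 knockdowns and 0.611 and 0.655 with controls 1 and 2. The label of control 3 was not checked against the level of LncT, which the table does not name. If that library were mislabelled, every control mean and group difference below would change in meaning. For each of the 10 genes the log2 difference is therefore given with and without control 3. Of 10 oocyte and early embryo markers, 9 averaged at least 1 FPKM, with BTG4, BMP15 and GDF9 the most abundant. ZAR1 fell below that level, and NLRP5 was at 0.98 to 1.78 FPKM. These markers are shared by oocytes and early embryos, so they could not check the 8-cell stage. Their summed level was 2292 to 2428 FPKM in knockdowns, 4012 and 3832 FPKM in controls 1 and 2, and 1541 FPKM in control 3, and the part of that difference in the results below was not tested. Of 11 cumulus and granulosa cell markers 2 averaged 1 FPKM or more, VCAN and STAR, while CYP11A1 and INHA were listed at 0 throughout. The summed level of the 11 was 4.77 to 8.37 FPKM in knockdowns and 1.78 to 5.98 FPKM in controls. VCAN was at 1.60 to 6.04 FPKM in knockdowns and 1.20 to 2.96 FPKM in controls, and STAR also overlapped between groups. TNFAIP6 did not overlap, at 1.46 to 1.74 FPKM in knockdowns and 0.086 to 0.537 FPKM in controls. For 8 blood and fibroblast markers the sum was 2.51 to 2.99 FPKM in knockdowns and 1.50 to 2.71 FPKM in controls, with LUM listed at 0. Of these DCN alone averaged at least 1 FPKM, at 0.663 to 1.62 FPKM in knockdowns and 0.607 to 1.69 FPKM in controls. In libraries of whole embryos, fewer cells of a kind and less RNA per cell cannot be told apart.

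Transcripts of all 10 genes were detected in every library, and all 10 passed the filter on low values, an average of 1 FPKM or more across the 6 libraries. Averaged over the 6 libraries, MAD2L1 was the most abundant at 259 FPKM, above 97.8% of the tested genes, though BOD1 exceeded it in controls 1 and 2 and BUB1B in control 2. BOD1, BUB1B and AURKA followed at 70.2, 67.7 and 64.5 FPKM. A lower tier held CDC20 at 16.9 FPKM, AURKB at 15.0, PLK1 at 8.14, AURKC at 7.87, BUB1 at 5.01 and PLK4 at 3.94 FPKM, the last above 36.4% of the tested genes. A pair of steps in this order held in every library: AURKA was above CDC20 in 6 of 6, and AURKB above PLK1 in 6 of 6. Other neighbours changed places, as BOD1 exceeded BUB1B in 3 of 6 libraries, BUB1B exceeded AURKA in 4, CDC20 exceeded AURKB in 5 and PLK1 exceeded AURKC in 4. At the bottom, BUB1 exceeded PLK4 in 3 of 6.

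**Figure D1:**
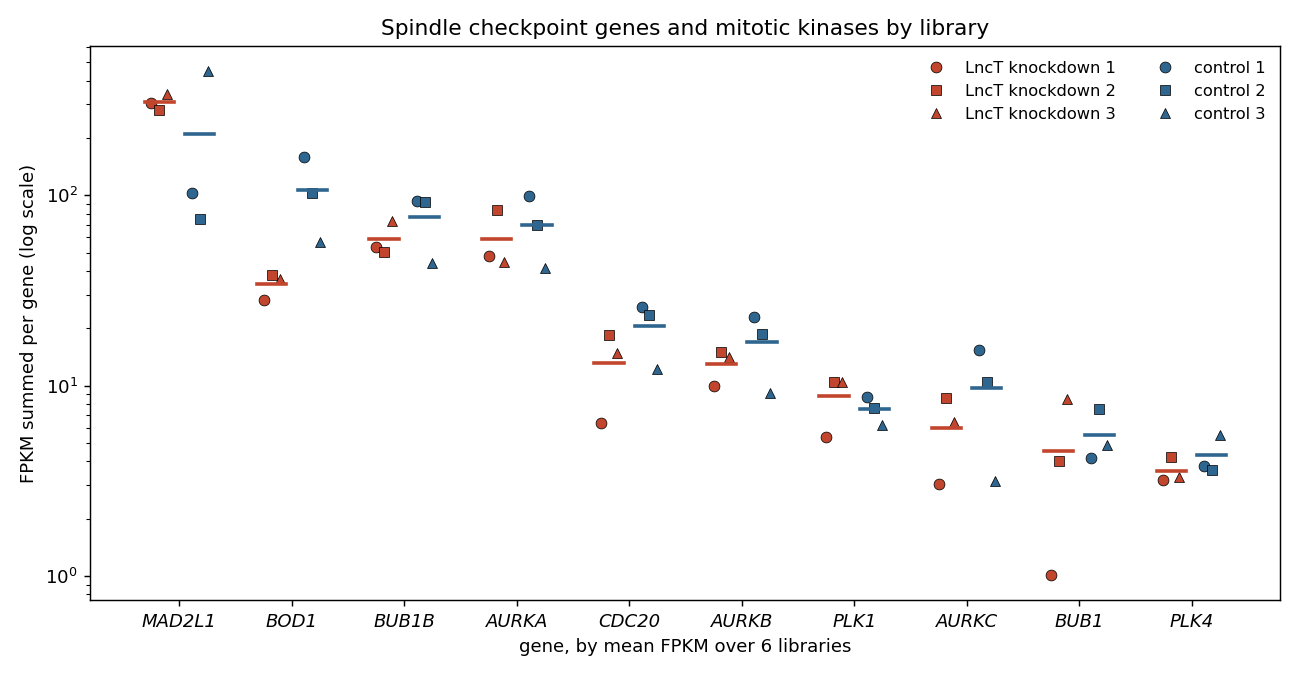
Each point is the FPKM of a gene in 1 library, on a log scale, with LncT knockdowns to the left of controls and a bar at the mean of each group of 3. BOD1 is the gene whose groups do not overlap, and for MAD2L1 control 3 lies above the knockdowns while controls 1 and 2 lie below them.

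BOD1 (gene ID 100521048, chromosome 16, 50734510 to 50743417, Sscrofa11.1) was lower in every knockdown than in every control. It was at 28.0, 38.3 and 36.3 FPKM in knockdowns 1, 2 and 3, and at 159, 102 and 56.8 FPKM in controls 1, 2 and 3. The knockdown values lay close together and the control values were spread, with control 3 nearest to the knockdowns. The means were 34.2 ± 5.45 FPKM in knockdowns and 106 ± 51.4 FPKM in controls (SD, n = 3 each), a ratio of 0.322, or 0.261 against controls 1 and 2 alone. On the log2(FPKM + 1) scale, used for every change below as knockdown minus control, the difference was -1.50 (95% interval -2.50 to -0.49). Of the 10417 tested genes, 14 had a more negative one. BOD1 was chosen with its lower level known, so this rank is a description. Without control 3 the difference was -1.88 (95% interval -2.55 to -1.22), and without control 1 it was -1.15. No other gene of the 10 had groups that did not overlap. Such a gap in the lower direction was seen for 2.86% of the tested genes, and in the higher direction for 4.38%. The mean read depth, summed over the transcript rows of BOD1, was 187 to 361 in knockdowns and 366 to 1066 in controls.

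BOD1 has 2 transcript rows, and the one that held most of its signal differed from library to library. One row is a predicted mRNA (XM_003483847.4) and the other a predicted transcript that RefSeq classes as non-coding (XR_002339624.1). The mRNA row was at 23.8 and 37.6 FPKM in knockdowns 1 and 2 and listed at 0 in knockdown 3, and it was at 158 FPKM in control 1 and listed at 0 in controls 2 and 3. The non-coding row was at 4.27, 0.739 and 36.3 FPKM in knockdowns 1, 2 and 3, and at 1.82, 102 and 56.8 FPKM in controls 1, 2 and 3. Each group thus held libraries of both kinds, and the mRNA row made up 84.8%, 98.1% and 0% of the gene in knockdowns 1, 2 and 3 and 98.9%, 0% and 0% in controls 1, 2 and 3. Taken singly, neither row separated the groups, and limma on single rows called none of the 13 tested rows of the 10 genes, beside 0.117% of all 12013 tested rows. The mRNA row had a log2 difference of 0.86 (95% interval -4.92 to 6.64) and the non-coding row one of -1.87 (95% interval -5.95 to 2.20). The lower level of BOD1 is a statement about the sum of both rows.

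PLK1, the Polo-like kinase of mitotic entry and spindle assembly, showed the same kind of exchange at a lower level. Its predicted mRNA (XM_021086465.1) was at 10.3 FPKM in knockdown 2 and listed at 0 in knockdowns 1 and 3, while controls 1 and 3 had 1.86 and 6.06 FPKM and control 2 was listed at 0. The non-coding model (XR_002342378.1) was at 5.39, 0.138 and 10.5 FPKM in knockdowns 1, 2 and 3, and at 6.86, 7.64 and 0.117 FPKM in controls 1, 2 and 3. These exchanges ran across both groups. Such exchanges were frequent in the table: of 2215 genes with several rows and at least 5 FPKM in every library, 19.2% had a row that held 80% or more of the gene in 1 library and 20% or less in another. Among the 346 of these genes with both a coding and a non-coding row, the leading row changed kind between libraries for 19.7%. How reads shared by 2 rows were assigned was not tested.

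**Figure D2:**
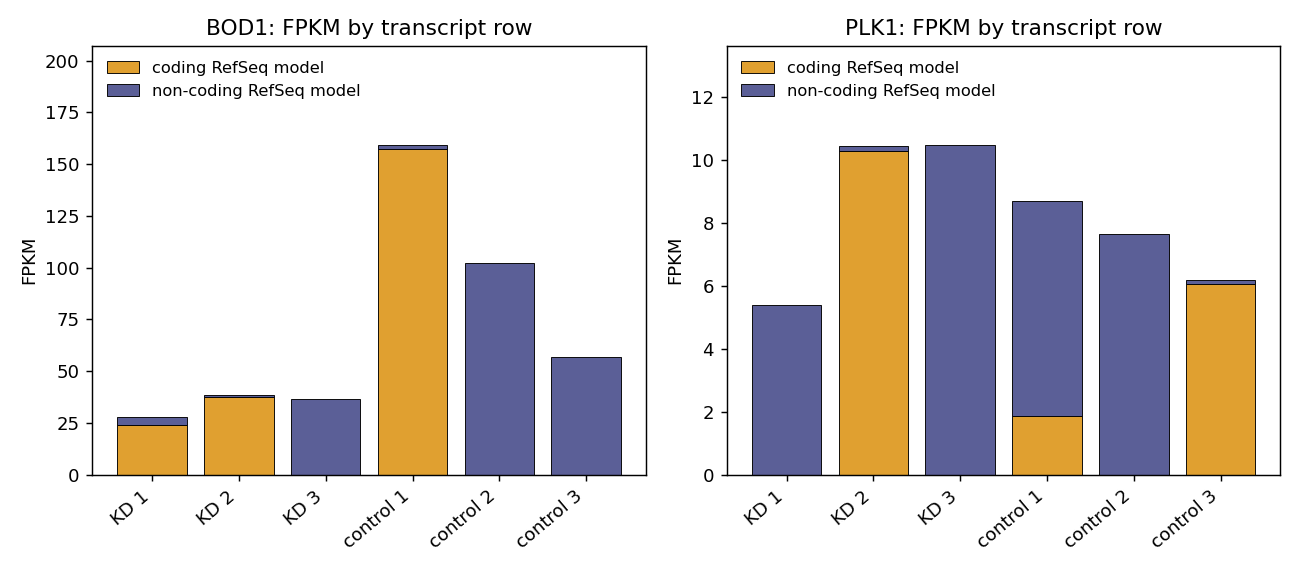
Bars give FPKM in each library for BOD1 (left) and PLK1 (right), with knockdowns left of controls, divided into the coding and the non-coding RefSeq model. In each gene the coding part fills the bar in some libraries and is absent or nearly so in others, in both groups.

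The other 8 genes drew on essentially 1 row each. Over all 10 genes, 21 of the 37 rows were listed at 0 in every library and 13 averaged at least 1 FPKM. AURKA used 1 of its 6 rows (XM_005673034.3), and AURKC (XM_021097310.1), BUB1 (XM_021087046.1) and CDC20 (XM_021093551.1) used 1 row each. PLK4 and BUB1B did so nearly as fully. For PLK4 the leading row (XM_021101607.1) held 93.4% or more of the gene in every library, and for BUB1B (XM_021097818.1) 97.6% or more. MAD2L1 has a single row (XM_003129223.4). For AURKB, 10 of 13 rows were at 0, the leading row (XM_013990048.2) held 98.6%, 94.9% and 84.3% in knockdowns 1, 2 and 3 and 96.7%, 79.9% and 95.2% in controls 1, 2 and 3, and a minor row (XM_021066188.1) held most of the rest.

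Among the checkpoint genes, MAD2L1 (chromosome 8, 103927358 to 103936669) had the widest spread among the controls. It was at 307, 282 and 339.9 FPKM in knockdowns 1, 2 and 3, and at 103, 74.6 and 449 FPKM in controls 1, 2 and 3. Every knockdown lay above controls 1 and 2, and control 3 lay above every knockdown. The means were 309 ± 29.1 FPKM in knockdowns and 209 ± 208 FPKM in controls (SD, n = 3 each), and the coefficient of variation was 9.41% in knockdowns and 99.7% in controls. The log2 difference was 1.02 (95% interval -0.50 to 2.55), or 1.80 (95% interval 1.25 to 2.36) without control 3 and 0.52 without control 2. Against controls 1 and 2 alone, the knockdown mean was 3.48 times as high.

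BUB1B (chromosome 1, 131093026 to 131143840), which encodes the checkpoint protein BUBR1, ran the other way. It was at 53.8, 50.2 and 72.8 FPKM in knockdowns 1, 2 and 3, and at 93.1, 92.2 and 44.1 FPKM in controls 1, 2 and 3. Knockdowns lay below controls 1 and 2 but above control 3, so the groups overlapped. Its log2 difference was -0.31 (95% interval -1.23 to 0.61), or -0.66 (95% interval -1.25 to -0.08) without control 3 and -0.13 without control 1. BUB1 (chromosome 3, 45585188 to 45623240), the kinase that gathers checkpoint proteins at kinetochores, was scarcer and more scattered. It was at 1.01, 4.04 and 8.50 FPKM in knockdowns 1, 2 and 3, and at 4.16, 7.52 and 4.85 FPKM in controls 1, 2 and 3. Knockdown 1 held its lowest and knockdown 3 its highest value, and the log2 difference of -0.47 (95% interval -1.84 to 0.90) turned to 0.12 without knockdown 1 and was -0.53 without control 3. The mean read depth over BUB1 in knockdown 1 was 6.74, the lowest of any of the 10 genes in any library.

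CDC20 (chromosome 6, 167886266 to 167890587), the activator of the anaphase-promoting complex and the target of the checkpoint, was at 6.37, 18.4 and 14.9 FPKM in knockdowns 1, 2 and 3. In controls 1, 2 and 3 it was at 25.9, 23.4 and 12.2 FPKM. Controls 1 and 2 were above every other library, and control 3 fell within the knockdown range. Its log2 difference of -0.65 (95% interval -1.79 to 0.49) was the second most negative of the 10, and it was -0.96 (95% interval -1.94 to 0.01) without control 3 and -0.23 without knockdown 1.

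Because MAD2L1 and CDC20 moved in opposite directions between libraries, their ratio differed widely. FPKM is scaled for length, so levels of different genes can be set against each other roughly. How reads with several positions were handled is not given, and its part in these ratios was not tested. MAD2L1 was 48.1, 15.3 and 22.8 times as abundant as CDC20 in knockdowns 1, 2 and 3, and 3.97, 3.19 and 36.6 times in controls 1, 2 and 3. Control 3 again stood within the knockdown range. Relative to BUB1B the MAD2L1 level was 5.70, 5.61 and 4.67 times in knockdowns 1, 2 and 3, and 1.11, 0.809 and 10.2 times in controls 1, 2 and 3. BUB3, the remaining subunit of the mitotic checkpoint complex, was at 234, 189 and 148 FPKM in knockdowns 1, 2 and 3 and at 150.1, 174 and 187 FPKM in controls 1, 2 and 3. In controls 1 and 2 BUB3 thus had the most abundant mRNA of the 4 genes for these subunits, and in the other 4 libraries MAD2L1 did. Protein was not measured.

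The Aurora kinase genes varied together, and each was highest in control 1. AURKA (chromosome 17, 56954838 to 56972435), the kinase of centrosomes and spindle poles, was at 48.1, 83.8 and 44.5 FPKM in knockdowns 1, 2 and 3, and at 98.8, 70.1 and 41.6 FPKM in controls 1, 2 and 3. Knockdown 2 stood above control 2, and control 3 was the lowest library. AURKB (chromosome 12, 53410833 to 53426165), the catalytic subunit of the chromosomal passenger complex, was at 9.96, 14.9 and 14.1 FPKM in knockdowns 1, 2 and 3, and at 22.9, 18.7 and 9.17 FPKM in controls 1, 2 and 3. AURKC (chromosome 6, 61584575 to 61588402), which in mouse and human serves mainly in germ cells and early embryos, was at 3.03, 8.59 and 6.45 FPKM in knockdowns 1, 2 and 3, and at 15.5, 10.5 and 3.15 FPKM in controls 1, 2 and 3. For AURKB and AURKC every knockdown lay below controls 1 and 2, and control 3 lay below or near the lowest knockdown. The log2 differences were -0.22 for AURKA, -0.29 for AURKB and -0.48 for AURKC, with 95% intervals of -1.24 to 0.79, -1.25 to 0.68 and -1.88 to 0.92. Without control 3 they were -0.55, -0.65 and -1.06, and without control 1 they were 0.06, -0.036 and -0.065.

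The summed level of the Aurora genes was 61.1, 107 and 65.0 FPKM in knockdowns 1, 2 and 3, and 137, 99.3 and 53.9 FPKM in controls 1, 2 and 3. Of that sum AURKA made up 78.8%, 78.1% and 68.4% in knockdowns 1, 2 and 3, and 72.0%, 70.6% and 77.2% in controls 1, 2 and 3. AURKC made up 4.96%, 8.00% and 9.93% in knockdowns 1, 2 and 3, and 11.3%, 10.6% and 5.85% in controls 1, 2 and 3. Its share was highest in controls 1 and 2 and lowest in knockdown 1. The span of AURKA overlaps that of CSTF1 (chromosome 17, 56972202 to 56984065), a gene of mRNA 3' end formation that was at 21.4 to 34.0 FPKM in knockdowns and 26.1 to 30.3 FPKM in controls. The sources used here do not give the strand setting of the authors' counting, so reads in the overlap cannot be told apart.

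**Figure D3:**
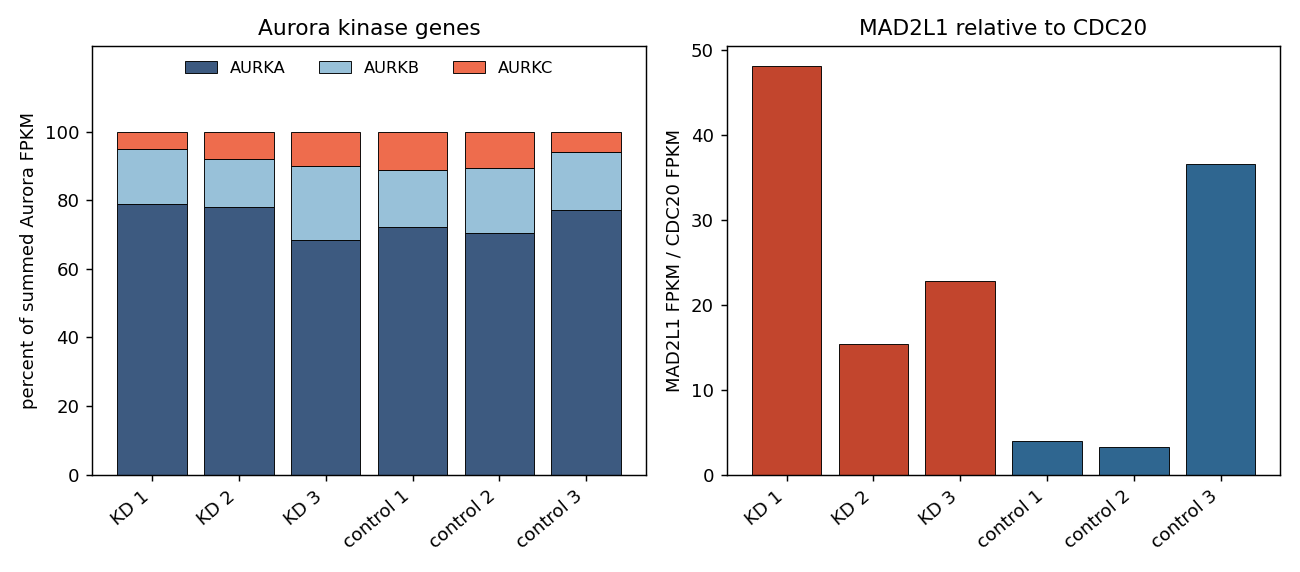
Left, the percent of the summed Aurora FPKM that each Aurora gene held in each library, and right, MAD2L1 FPKM divided by CDC20 FPKM, with knockdowns left of controls. AURKA holds 68.4% to 78.8% everywhere, and the MAD2L1 to CDC20 ratio is below 4 in controls 1 and 2 alone.

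PLK1 and PLK4 had the smallest log2 differences of the 10 genes. PLK1 (chromosome 3, 22537814 to 22550901), summed over both rows, was at 5.39, 10.4 and 10.5 FPKM in knockdowns 1, 2 and 3, and at 8.71, 7.64 and 6.18 FPKM in controls 1, 2 and 3. Knockdowns held both the lowest and the highest values, and the log2 difference was 0.16 ± 0.36 (SE), or 0.043 without control 3. PLK1 and its neighbour ERN2 overlap in the annotation, but ERN2 was listed at 0 or under 0.01 FPKM in every library. PLK4 (chromosome 8, 96989011 to 97013324) was at 3.18, 4.23 and 3.30 FPKM in knockdowns 1, 2 and 3, and at 3.78, 3.62 and 5.52 FPKM in controls 1, 2 and 3. Control 3 was the highest library for PLK4. It lay below both other controls for 7 of the 10 genes (BOD1, BUB1B, CDC20, PLK1 and the Aurora genes), as it did for 47.7% of all tested genes. The log2 difference of PLK4 was -0.20 (95% interval -0.91 to 0.50), or -0.047 without control 3.

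Across the 10 genes, 8 had a log2 difference below 0, beside 49.6% of all tested genes, and the median was -0.30, beside 0.00 over all tested genes. Leaving out control 3 gave a median of -0.60, beside -0.047 over all tested genes. Leaving out control 1 gave -0.098, beside 0.043, and leaving out knockdown 1 gave -0.12, beside 0.061, each with 7 genes below 0. All 3 knockdowns lay below controls 1 and 2 for 5 genes (BOD1, BUB1B, AURKB, AURKC and CDC20), a pattern of 30.5% of all tested genes, and above them for MAD2L1, a pattern of 31.3%. Control 3 lay nearer to the knockdown mean than to the mean of controls 1 and 2 for 7 genes, as it did for 84.4% of all tested genes. The exceptions were BUB1, PLK1 and PLK4. In limma with 6 libraries 0 of 10417 genes (0%) had an adjusted p under 0.05, and the 10 genes were therefore not called either. Without adjustment, 436 genes had a p under 0.05. Without control 3, 2854 genes (27.4%) passed in limma, 20.2% of the tested genes as higher and 7.22% as lower, and of the 10 genes MAD2L1 was among the higher and BOD1 among the lower. The genes were chosen with this contrast known, so nothing is read from these counts.

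**Figure D4:**
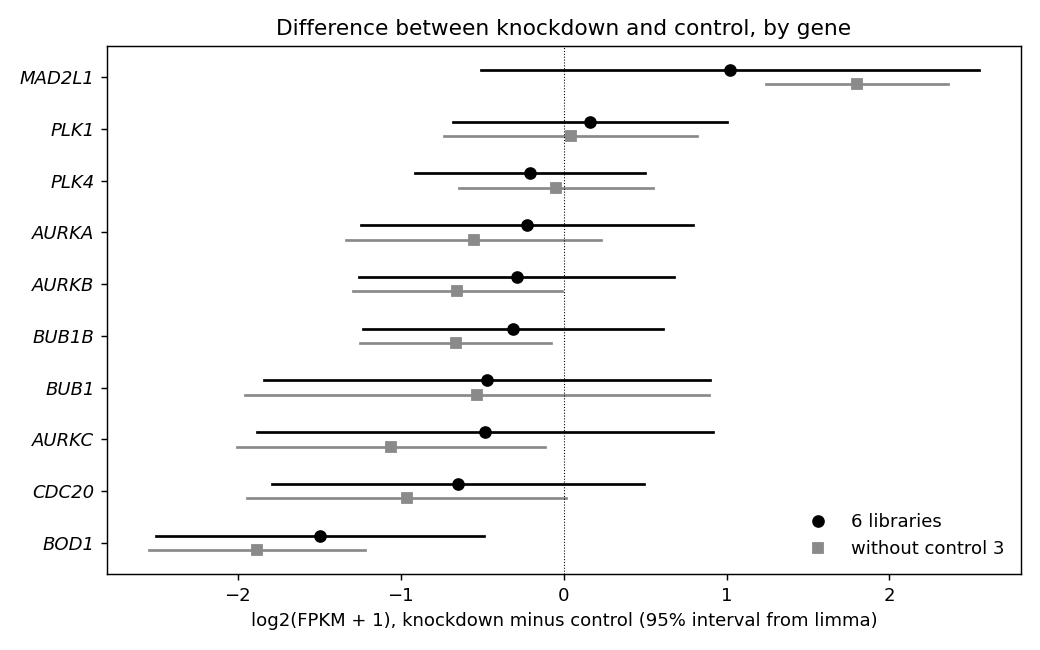
Points give the difference of log2(FPKM + 1), knockdown minus control, with the 95% interval from limma, for all 6 libraries (black circles) and without control 3 (grey squares). In both cases the interval of BOD1 lies wholly below 0. Without control 3 alone, those of BUB1B, AURKB and AURKC also lie wholly below 0, and that of MAD2L1 wholly above. BUB1B, AURKB and AURKC were not called in limma without control 3. The intervals are for single genes and are not adjusted for the number of genes tested. The genes shown, BOD1 among them, were chosen with this contrast known, so the position of an interval relative to 0 is a description and not a test.

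Correlations over the 6 libraries, which share depth and the split of control 3 from controls 1 and 2, are given as a description. AURKB and AURKC tracked each other most closely of the 45 pairs (Pearson r = 0.99 of log2(FPKM + 1)), and AURKC and CDC20 came next (r = 0.92). MAD2L1 had a negative r with BUB1B (-0.87), AURKB (-0.85) and BOD1 (-0.80). Among 3232 other genes with a symbol and a mean of at least 10 FPKM, those whose pattern was most like that of BOD1 were CAMK2D (r = 0.99), a calcium-dependent kinase, CUL4B (r = 0.98), a ubiquitin ligase scaffold, and RFC4 (r = 0.96), a subunit of the clamp loader of DNA replication. RFC4 was at 13.1, 20.6 and 16.9 FPKM in knockdowns 1, 2 and 3, and at 38.7, 31.7 and 19.1 FPKM in controls 1, 2 and 3, so that control 3 lay within the knockdown range.

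The machinery around the 10 genes was followed with 8 lists of 96 further genes, of which 94 were in the table and 79 were tested. With 6 libraries 0 of the 79 passed in limma in either direction, beside 0 of all 10417 tested genes, and 42 were above 0 and 37 below, with a median of 0.12. Knockdown and control ranges were apart for 6 of the 79 genes in the higher and 1 in the lower direction, beside 4.38% and 2.86% of all tested genes. Without control 3, 13 of the 79 were called higher and 4 lower in limma, beside 20.2% and 7.22% of all tested genes. Those 13 were ANAPC10, CDC23, CDC26, RAD21, STAG2, PDS5B, CDCA5, SPC25, MIS12, STIL, PLK2, NEK9 and CDK1, and the 4 were PPP2R1B, BORA, PLK3 and MASTL. Control 3 was singled out by its values in these same data. Calls and adjusted p-values without it, here and below, are therefore given as a description. The list medians given below are for 6 libraries, and without control 3 they ran from -0.29 to 0.28.

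Other spindle checkpoint genes (11 tested) had a median log2 difference of 0.06 and 0 calls with or without control 3. MAD2L1BP, the partner of TRIP13 in taking the checkpoint complex apart, was at 13.6 ± 2.26 FPKM in knockdowns and 9.99 ± 2.36 FPKM in controls (SD, n = 3 each), with a limma adjusted p of 0.775. ZW10, which brings MAD proteins and dynein to kinetochores, was at 18.9 ± 4.15 FPKM in knockdowns and 27.0 ± 9.03 FPKM in controls (SD, n = 3 each, limma adjusted p = 0.782). For the passenger complex and shugoshins (5 tested) the median was 0.16, again with 0 calls with or without control 3. CDCA8, the borealin subunit that binds Aurora B, was at 5.84 ± 1.95 FPKM in knockdowns and 8.86 ± 3.90 FPKM in controls. SGO2, a protector of centromeric cohesion, was at 127 ± 29.3 FPKM in knockdowns and 109 ± 9.87 FPKM in controls (SD, n = 3 each).

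The list of PP2A-B56 subunits and BOD1 relatives holds the phosphatase that BOD1 acts on (9 tested), and its median was 0.19. BOD1L1, the larger relative of BOD1, was at 8.68, 10.1 and 9.10 FPKM in knockdowns 1, 2 and 3, and at 5.31, 5.70 and 14.1 FPKM in controls 1, 2 and 3. Controls 1 and 2 were thus its lowest libraries, where they were the highest for BOD1. PPP2R1B, a scaffold subunit of PP2A, was at 76.7, 114 and 92.1 FPKM in knockdowns 1, 2 and 3, and at 195, 187 and 72.0 FPKM in controls 1, 2 and 3. It was the 1 gene of the list called without control 3 (log2 difference -1.03, limma adjusted p = 0.0210). SET, an inhibitor of PP2A, was at 55.7, 92.4 and 100.6 FPKM in knockdowns 1, 2 and 3, and at 6.73, 73.1 and 93.7 FPKM in controls 1, 2 and 3, and its low value was that of control 1 alone.

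For the anaphase-promoting complex (15 tested) the median was -0.01 with 6 libraries and 0.11 without control 3. CDC23, a scaffold subunit, was at 2.38, 1.26 and 1.82 FPKM in knockdowns 1, 2 and 3, and at 0.224 and 1.20 FPKM in controls 2 and 3, with control 1 listed at 0. CDC26, a small subunit, was at 28.1, 118 and 60.5 FPKM in knockdowns 1, 2 and 3, and at 2.22, 6.79 and 99.9 FPKM in controls 1, 2 and 3. Neither passed with 6 libraries, and the limma adjusted p without control 3 was 0.0125 for CDC23 and 0.00561 for CDC26. Securin, separase and cohesin genes (11 tested) had a median of 0.20. In that list CDCA5 (sororin), which stabilises cohesin on chromosomes, was at 4.74, 6.09 and 5.97 FPKM in knockdowns 1, 2 and 3 and at 0.809, 1.75 and 4.09 FPKM in controls 1, 2 and 3, with no overlap between groups. STAG2, a cohesin subunit, was at 34.2, 43.4 and 32.1 FPKM in knockdowns 1, 2 and 3, and at 9.30, 7.70 and 47.2 FPKM in controls 1, 2 and 3, so that control 3 was above every knockdown.

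Among the 8 genes of the kinetochore KMN network, which binds microtubules and carries the checkpoint proteins, the median was 0.05. MIS12 was at 194, 155 and 172 FPKM in knockdowns 1, 2 and 3, and at 63.7, 72.0 and 132 FPKM in controls 1, 2 and 3, with no overlap. Its log2 difference was 1.02 ± 0.36 (SE), with a limma adjusted p of 0.775, or 0.00521 without control 3. SPC25 was at 219, 146 and 120 FPKM in knockdowns 1, 2 and 3, and at 39.9, 72.6 and 203 FPKM in controls 1, 2 and 3, with controls 1 and 2 below every knockdown and control 3 within the knockdown range.

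Cofactors of Aurora and Polo kinases (11 tested) had a median of -0.18. BORA, which helps Aurora A to activate PLK1, was at 9.09, 17.3 and 17.3 FPKM in knockdowns 1, 2 and 3, and at 34.7, 28.1 and 13.6 FPKM in controls 1, 2 and 3. STIL, the centriole protein that works with PLK4, was at 13.4, 15.0 and 17.3 FPKM in knockdowns 1, 2 and 3, and at 5.12, 6.10 and 13.7 FPKM in controls 1, 2 and 3. BORA and STIL did not pass with 6 libraries and passed in limma without control 3 (log2 differences -1.10 and 1.30, adjusted p = 0.0459 and 0.00959). The remaining mitotic and Polo-family kinases (9 tested) had a median of 0.14. PLK2 was at 4.88, 5.99 and 1.75 FPKM in knockdowns 1, 2 and 3 and at 0.273, 0.261 and 1.23 FPKM in controls 1, 2 and 3, with no overlap between groups. PLK3 was at 1.04, 3.71 and 3.49 FPKM in knockdowns 1, 2 and 3, and at 8.88, 7.81 and 2.40 FPKM in controls 1, 2 and 3. PLK2 and PLK3, both known as stress-responsive relatives of PLK1, had log2 differences of 1.66 ± 0.44 and -0.93 ± 0.54 (SE), with a limma adjusted p of 0.775 for each, or 0.0138 and 0.0384 without control 3. These low values moved with the pseudocount. Between 0.1 and 5, the log2 difference of PLK2 went from 2.77 to 0.70 and that of PLK3 from -1.17 to -0.52. Those of CDC23 and CDCA5, in the lists above, went from 2.43 to 0.32 and from 1.56 to 0.58.

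**Figure D5:**
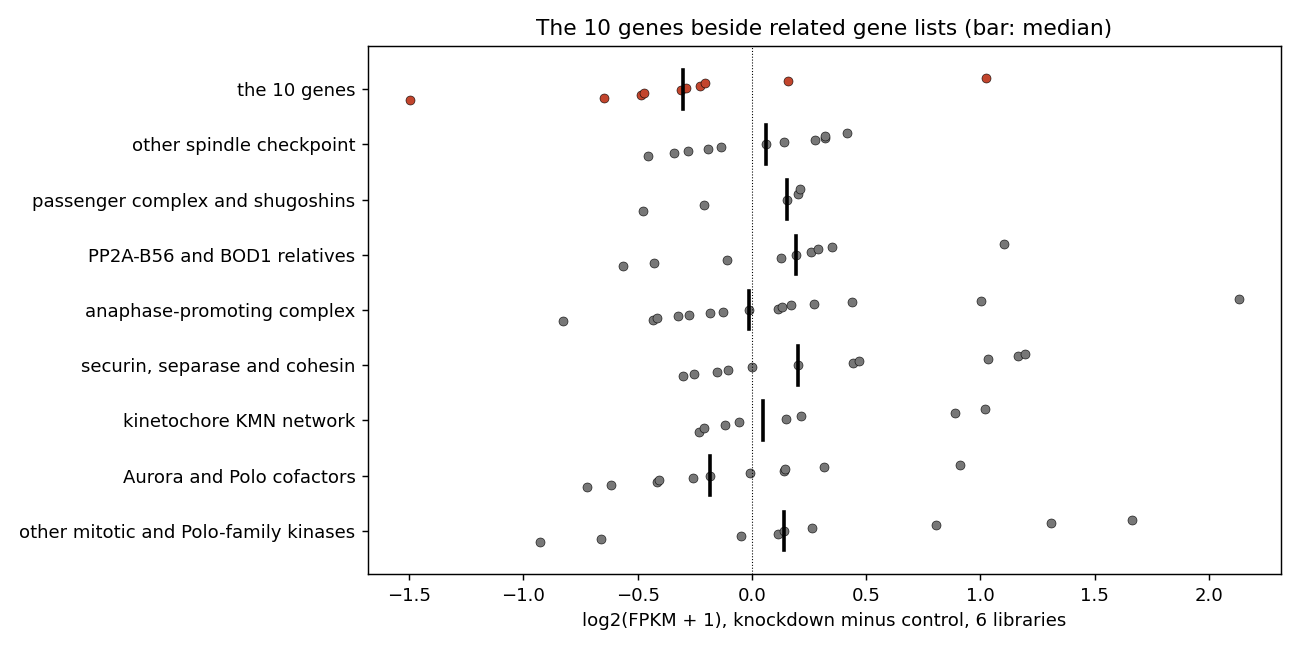
Each point is the difference of log2(FPKM + 1), knockdown minus control, of a tested gene over 6 libraries, with the 10 genes in the top line, each related list below it and a bar at the median. BOD1, at -1.50, lies further to the left than any gene of the related lists, but it was chosen with its lower level known. List medians run from -0.18 to 0.20.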

How the data were processed

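The deposited table gives 3 values per transcript row and library, per the file headers. The deposited FPKM is scaled by the authors for transcript length and library depth, the deposited TPM is rescaled to the same total in each library, and the deposited coverage is a signal of mean read depth. Cutadapt, Bowtie2 2.3.5 and StringTie 2.1.7 are the tools, and Sscrofa11.1 the build, per the submitters' processing notes. The sources used here give neither their roles, nor the strand setting, nor the handling of reads with several positions, so near-identical copies, overlapping genes and the division between transcript rows are uncertain. An exact 0 may be a failed estimate.

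Samples were tied to columns by name, the prefix SL to the titles with siL. A further 9 value columns matched no title and were not used. The level of LncT was not checked, since the table does not identify it.

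FPKM was summed per gene. In 1758 rows the name cell held a number, and these were named by their identifier, while 129 rows with a date for a name were renamed through their accession. The 10417 genes that averaged 1 FPKM or more were tested on the log2(FPKM + 1) scale by limma (version 3.58.1, R 4.3.3), two-sided, with a trend of variance on mean and Benjamini-Hochberg adjustment at 0.05. Log2 differences on this scale understate the change of weakly expressed genes. Transcript rows were tested in the same way (12013). Nothing in the labels says that replicates came from separate collections, and the spread that p-values measure here may be technical. No 2 libraries were identical. Coordinates come from the RefSeq gene table of Sscrofa11.1, in which all 10 genes were found. Tables were made with pandas 2.3.3 and numpy 2.4.6 in Python 3.11.15, and plots with matplotlib 3.10.9.

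The 10 genes and the related lists were chosen with earlier results of these data known. The text names all 10 genes, every transcript row of theirs with a mean of at least 1 FPKM, the 2 genes with the smallest p in each related list, and the 3 genes most correlated with BOD1. BUB3, BOD1L1, CDK1 and PTTG1, genes that overlap one of the 10, and the genes called without control 3 were added after their values were seen. The alternatives left out each library in turn, weighted the libraries, added a replicate block, dropped the trend, used TPM, quantile or median-of-ratios scaling, changed the pseudocount to 0.1 or 5, or filtered at 5 FPKM or not at all.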

Additional observations from a re-analysis of the deposited data

How the results depend on the processing

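The number of calls depended on control 3. With 1 library left out, the genes called by limma ranged from 0 to 2854, the genes of the related lists from 0 to 17 and the transcript rows from 0 to 1614, and the highest value of each was that without control 3. Array weights gave 3405 genes and 17 genes of the related lists, with a weight of 0.113 for control 3. With 6 libraries 14 transcript rows were called, none of them of the 10 genes, beside 9 without control 2, 25 without knockdown 1, 2 without knockdown 2, 0 without knockdown 3 and 0 with the replicate block. That block left the counts of genes at 0. Deviations of same-numbered libraries correlated at 0.08, 0.06 and 0.23, and not every library correlated best with its own number. With 3 libraries per group, these values cannot tell whether same-numbered libraries were paired. No other alternative moved a count of calls by over 1.5 times. The log2 difference of BOD1 ran from -1.88 without control 3 to -1.15 without control 1. That of MAD2L1 ran from 0.52 without control 2 to 1.81 with array weights. Both kept 1 sign under all 16 alternatives, though the filters, the trend and the block left these differences unchanged. BUB1B, AURKB, AURKC, PLK1, PLK4 and CDC20 kept 1 sign too. BUB1 changed sign without knockdown 1 and AURKA without control 1, to 0.12 and 0.06, AURKB and AURKC came near 0 without control 1, at -0.036 and -0.065, CDC20 moved to -0.23 without knockdown 1, and SET ran from -0.043 without control 1 to 1.76 without control 3. The causes were not tested. PLK4 falls below a filter of 5 FPKM and has no value there. Quantile normalization moved the median of all genes to -0.17, relative to which the median of -0.43 for the 10 genes stands.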

Other observations

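PTTG1, the gene of securin, which is destroyed once CDC20 activates the anaphase-promoting complex, was far more abundant than the 10 genes. It was at 4285, 4480 and 4874 FPKM in knockdowns 1, 2 and 3, and at 6446, 5013 and 2898 FPKM in controls 1, 2 and 3. Control 3 held the lowest value and controls 1 and 2 the highest. CDK1, the kinase of mitotic entry, was at 47.8, 65.2 and 56.9 FPKM in knockdowns 1, 2 and 3, and at 9.27, 16.6 and 192 FPKM in controls 1, 2 and 3. As for MAD2L1, every knockdown lay above controls 1 and 2 and below control 3. The first part of this pattern was seen for 31.3% of all tested genes. Both genes were chosen after their values were seen.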
